A study of Mus musculus with 8 samples.

Results

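The complement system is a cascade of blood and tissue proteins that tag cells and debris for removal. This account follows 9 of its genes, chosen by symbol from the 24060 rows of a mouse gene count table. C1qa, C1qb and C1qc encode the chains of the recognition protein C1q, C4b and C2 the next proteases and substrates of the classical pathway, C3 the central component, and Cfb the protease of the alternative pathway. Serping1 encodes the C1 inhibitor, and C5ar1 the receptor for the fragment C5a. All 9 were found, and all 9 passed the filter on low counts, as 13770 genes did.

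The RNA came from dissociated dorsal root ganglia, the clusters of sensory neuron cell bodies beside the spinal cord, at lumbar levels L4 to L6. The 4 injury libraries are from ganglia of the side whose sciatic nerve was crushed 3 days earlier, and the 4 naive libraries are from uninjured ganglia. Per the series' design text, both kinds of ganglia were taken from each of 4 mice, so the naive ganglia also come from animals with 1 crushed nerve. Libraries were made with QuantSeq REV, which reads each transcript from its poly(A) end, so a count does not scale with transcript length.

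In the classical pathway, C1q binds antibody or other surface patterns and its partner proteases cleave C4 and C2, which together form an enzyme that cleaves C3. The alternative pathway cleaves C3 with the help of factor B, the product of Cfb. In the nervous system C1q is known as a product of macrophages and microglia and for its part in the clearance of synapses and debris. C1 inhibitor blocks the C1 proteases at the top of the classical pathway.

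The 3 C1q chain genes lie side by side on the minus strand of chromosome 4 (GRCm38). C1qb spans 136880129 to 136886187, C1qc 136889804 to 136893065, and C1qa 136895917 to 136898803. Their products are needed together, so the stretch before the start of C1qb (chr4:136886201-136886450) and of C1qc (chr4:136892915-136893164), both on the minus strand, is shown here. Both are the 250 bases before the annotated start in RefSeq on GRCm38.p6, 5′ to 3′, and capitals mark matches to GAGGAA, the core bound by the macrophage factor PU.1, on either strand.
C1qb: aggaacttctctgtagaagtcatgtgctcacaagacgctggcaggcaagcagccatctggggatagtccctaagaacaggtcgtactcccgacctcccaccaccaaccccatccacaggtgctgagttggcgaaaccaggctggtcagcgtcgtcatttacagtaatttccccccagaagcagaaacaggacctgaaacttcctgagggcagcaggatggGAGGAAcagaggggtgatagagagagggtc
C1qc: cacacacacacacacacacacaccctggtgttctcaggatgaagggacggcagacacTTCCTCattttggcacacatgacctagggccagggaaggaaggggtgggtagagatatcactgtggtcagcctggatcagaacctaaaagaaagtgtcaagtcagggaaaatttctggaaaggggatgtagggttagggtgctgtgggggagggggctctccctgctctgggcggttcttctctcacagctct
The match lies 30 bases before the start in C1qb and 193 bases before it in C1qc. These distances are from the RefSeq start, while the gene spans given above are from GENCODE, and the annotations differ for both genes. For C1qb no base printed lies inside the GENCODE span, and the match is 43 bases before the GENCODE start. For C1qc 151 of the 250 bases printed lie inside the GENCODE span, and the match is 42 bases before the GENCODE start. GAGGAA is common: 23.3% of the 32851 promoter windows of this length in the table hold at least 1 match. Of the other motifs searched on both strands, neither held TTCNNNGAA (STAT), TGANTCA (AP-1) or TTGCNNAA (C/EBP core), which 7.02%, 6.75% and 9.56% of all windows hold. For the 9 genes the RefSeq table gave 4 promoters, those of C1qb, C1qc, C3 and C5ar1. The C3 window held 1 TTGCNNAA match, 45 bases before the start, and no GAGGAA, and the C5ar1 window, of which 202 bases lie inside the GENCODE gene span, held none of the motifs.

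In injured ganglia the genes of the 3 C1q chains and C4b rose, Serping1 fell, and C2, C3, Cfb and C5ar1 did not pass the test. With 4 of 9 members called higher and 1 of 9 lower, the counts stand beside 10.1% of all tested genes higher and 7.76% lower. The median log2 fold change was -0.13 over the 9 members and -0.02 over all genes tested. A further fit had the replicate number as a block, on the assumption that same-numbered libraries share a mouse. In it 4 members were again higher and 1 lower, beside 10.1% and 9.01% of all genes. Levels are in CPM, the usual scaling of a count by the library total, here with the total adjusted by TMM factors. Fold changes compare injury with naive ganglia, and adjusted p-values are from edgeR's quasi-likelihood test over all tested genes with a threshold of 0.05.

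C1qa encodes the A chain of C1q. It had 9.24, 8.36, 12.8 and 9.93 CPM in injury libraries 1 to 4, against 2.43, 2.10, 3.12 and 3.06 CPM in naive libraries 1 to 4. Every injury library lay above every naive one. The groups averaged 10.1 ± 1.94 CPM in injury and 2.67 ± 0.492 CPM in naive ganglia (SD, n = 4 each), which is 1.91 on the log2 scale (SE 0.21, adjusted p = 6.17e-05).

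C1qb encodes the B chain and had the fewest counts of the chains, 316 over the injury libraries and 97 over the naive ones. Its levels were 3.67, 3.90, 3.91 and 2.57 CPM in injury libraries 1 to 4 and 0.524, 0.669, 1.59 and 1.88 CPM in naive libraries 1 to 4. The groups did not overlap, and injury 4 and naive 4 were the closest to each other. C1qb rose by 1.59 on the log2 scale (SE 0.41, adjusted p = 0.0172). Without naive 2, injury 2 and injury 3 together its log2 fold change was 1.23 and the call was lost (adjusted p = 0.137).

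C1qc encodes the C chain. Its libraries held 7.65, 5.98, 12.2 and 6.13 CPM in injury and 0.715, 1.24, 2.90 and 2.18 CPM in naive ganglia, again with no overlap. Injury 3 was the highest, and naive 1 the lowest. C1qc had the largest log2 fold change of the 9 members, 2.19 (SE 0.39, adjusted p = 0.00195). Groups that do not overlap in this direction are found in 12.6% of all tested genes.

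**Figure D1:**
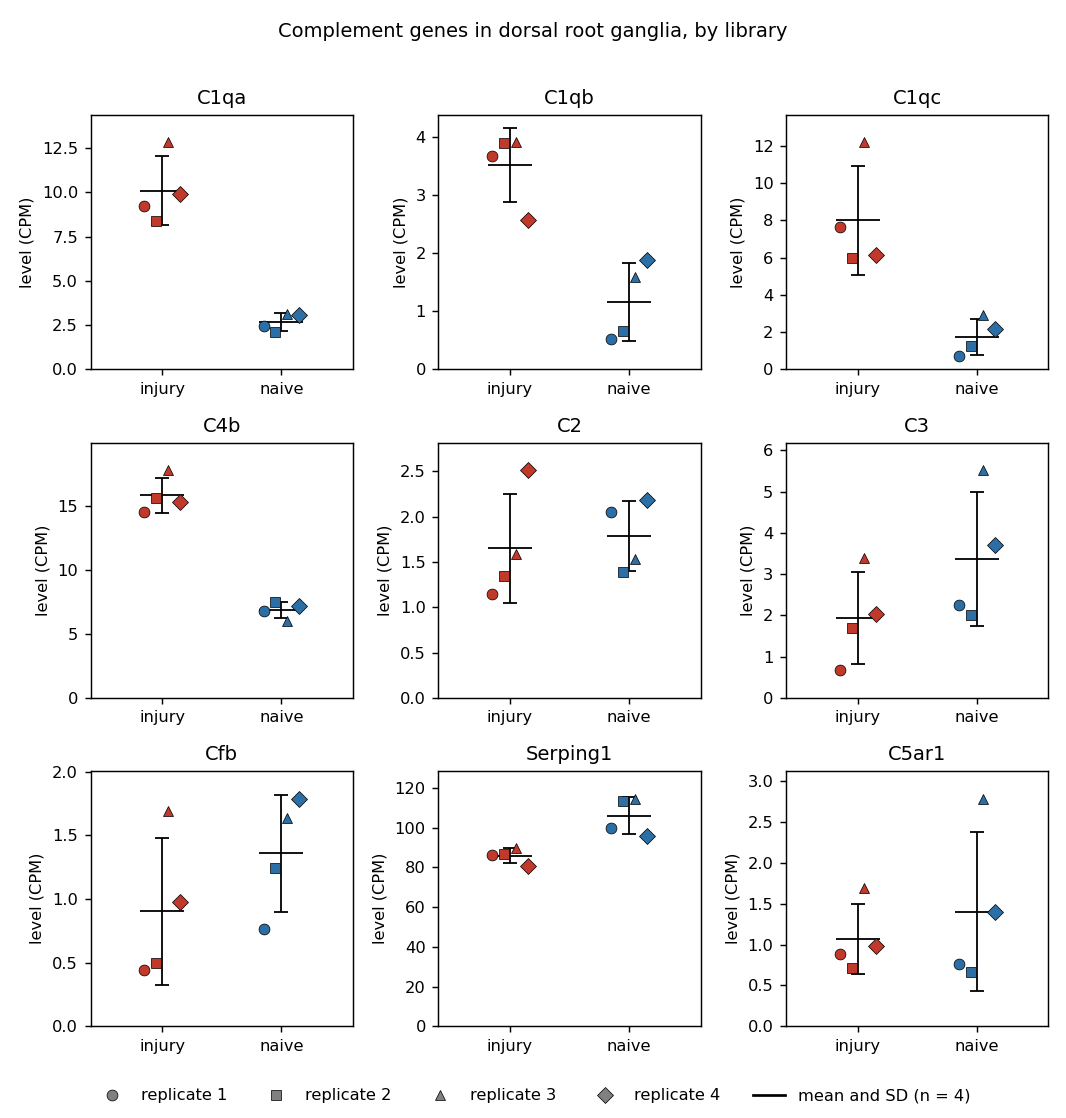
Level in CPM (linear axis from 0) of each of the 9 complement genes in the 4 injury (left) and 4 naive (right) libraries, with the marker shape giving the replicate number and the black bar the mean and SD. C1qa, C1qb, C1qc and C4b lie higher in every injury library than in any naive one, Serping1 lower, and the other genes overlap.

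Summed over the chains, C1q RNA was 20.5, 18.2, 29.0 and 18.6 CPM in injury libraries 1 to 4, against 3.67, 4.01, 7.60 and 7.11 CPM in naive libraries 1 to 4. The geometric means differed 3.99-fold, a log2 difference of 2.00. The two-sided exact permutation p was 0.0286, the lowest value possible with 4 libraries a group, and 0.0857 when adjusted over 6 sums, ratios and shares. The chains kept no fixed proportion between libraries. C1qa made up 47.1% ± 4.17 of the chains' counts in injury and 50.6% ± 11.5 in naive libraries (SD, n = 4 each). For C1qb these shares were 16.6% ± 3.72 and 19.6% ± 5.30, and for C1qc 36.3% ± 4.43 and 29.8% ± 7.70. In all 3 shares the groups overlapped, with exact permutation p-values of 0.714, 0.457 and 0.171, so no shift between the chains was detectable at this depth.

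**Figure D2:**
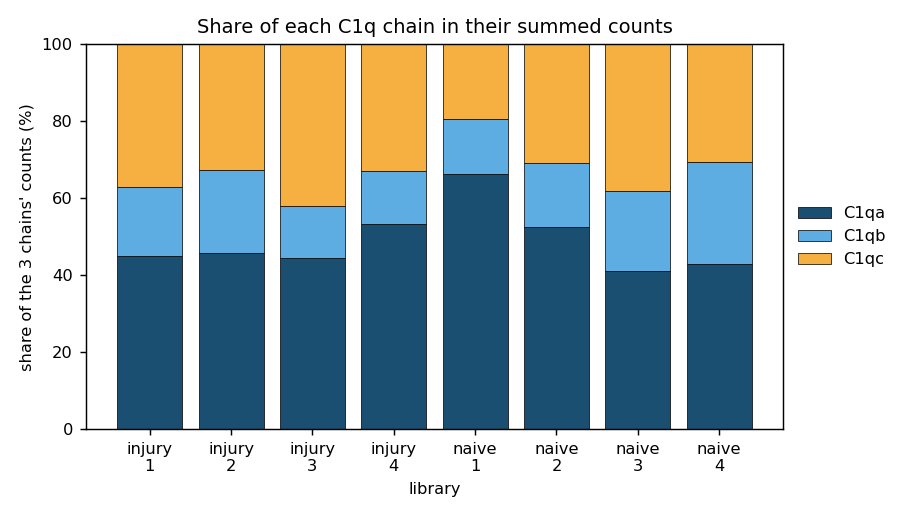
Share of C1qa (dark blue), C1qb (light blue) and C1qc (orange) in the summed counts of the 3 chains, in percent, for each injury library (left 4 bars) and naive library (right 4 bars). C1qa took 44.3% to 53.3% in injury libraries and up to 66.2% in naive libraries, where it reached that share in naive 1.

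C4b encodes the mouse complement component C4, which C1 cleaves (chromosome 17, 34728380 to 34743882, minus strand). It had 14.5, 15.6, 17.8 and 15.3 CPM in injury libraries and 6.82, 7.45, 6.01 and 7.20 CPM in naive libraries 1 to 4. The lowest injury library held almost as much again as the highest naive one. C4b averaged 15.8 ± 1.38 CPM in injury and 6.87 ± 0.628 CPM in naive ganglia (SD, n = 4 each), or 1.20 on the log2 scale (SE 0.14, adjusted p = 8.80e-05). Its near-identical neighbour C4a held 13 counts over the injury libraries and 2 over the naive ones. No source used here says how reads that fit both genes were counted, so the split between them is uncertain.

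C2 (chromosome 17, 34862604 to 34898265) encodes the protease that joins C4b in the C3-cleaving enzyme. It had 1.15, 1.35, 1.59 and 2.51 CPM in injury and 2.05, 1.39, 1.53 and 2.18 CPM in naive libraries. The groups overlapped over most of their range, and injury was higher in 2 of the 4 same-numbered pairs. Its log2 fold change was -0.13 (SE 0.36, adjusted p = 0.844).

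C3 (chromosome 17, 57203970 to 57228136) encodes the component on which all pathways converge. It had 0.663, 1.70, 3.38 and 2.02 CPM in injury libraries 1 to 4 and 2.24, 2.01, 5.52 and 3.71 CPM in naive libraries 1 to 4. It was lower in injury in each of the 4 pairs, but injury 3 lay above naive 1 and naive 2, and injury 4 just above naive 2. The log2 fold change of -0.80 (SE 0.46) did not pass the test (adjusted p = 0.268). The fit blocked on replicate number gave an adjusted p of 0.0972.

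Cfb, the factor B gene next to C2 (chromosome 17, 34856374 to 34862518), had 0.442, 0.496, 1.69 and 0.980 CPM in injury and 0.763, 1.24, 1.64 and 1.79 CPM in naive libraries. Injury 3 and injury 4 lay within the naive range and injury 1 and 2 below it. Its log2 fold change was -0.60 (SE 0.51, adjusted p = 0.455), on 75 counts in injury and 113 in naive libraries in all.

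Serping1, the C1 inhibitor gene (chromosome 2, 84765387 to 84775444), had the most counts of the 9 members. It had 86.2, 86.9, 89.7 and 80.7 CPM in injury libraries 1 to 4, against 100.1, 113, 115 and 96.1 CPM in naive libraries 1 to 4. Every injury library lay below every naive one, as in 10.8% of all tested genes. Serping1 averaged 85.9 ± 3.77 CPM in injury and 106 ± 9.42 CPM in naive ganglia (SD, n = 4 each), or -0.30 on the log2 scale (SE 0.09, adjusted p = 0.0298). The call was lost without naive 2, naive 3, injury 1, injury 2 or injury 4, with adjusted p-values up to 0.102 and log2 fold changes from -0.32 to -0.27.

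C5ar1 (chromosome 7, 16246743 to 16259540) encodes the C5a receptor of myeloid cells. It had 0.884, 0.708, 1.69 and 0.980 CPM in injury and 0.763, 0.669, 2.79 and 1.40 CPM in naive libraries. The groups overlapped, with naive 3 highest of all. The log2 fold change of -0.39 (SE 0.52, adjusted p = 0.649) was 0.16 without naive 3.

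**Figure D3:**
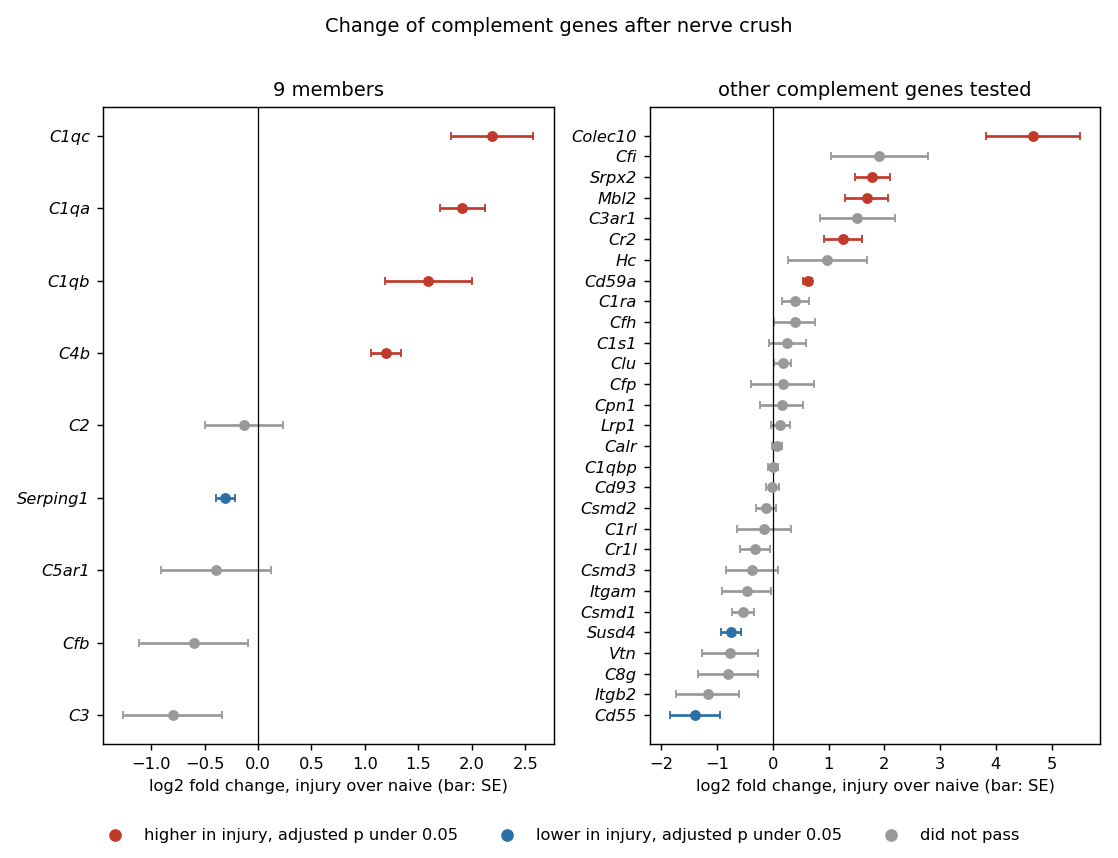
Log2 fold change, injury over naive, with its SE for the 9 members (left) and for the 29 other complement genes that passed the filter on low counts (right), with red and blue for genes past the test as higher and lower. C1qc, C1qa, C1qb and C4b stand at 1.20 to 2.19 on the left, and Colec10 at 4.67 and Cd55 at -1.40 mark the ends on the right.

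Of 56 other complement genes listed and found, 29 passed the filter on low counts, of which 5 rose, 2 fell and 22 did not pass the test, beside 10.1% of all tested genes higher and 7.76% lower. The 5 include Colec10, which passed the filter only through the injury libraries. Their median log2 fold change was 0.14. In 10 of the 56 no library held a count, among them the factor D gene Cfd and the macrophage receptor gene Vsig4. The genes of the C1 proteases, C1ra and C1s1, had log2 fold changes of 0.40 (SE 0.24, adjusted p = 0.281) and 0.26 (SE 0.33, adjusted p = 0.638), with overlapping groups.

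Mbl2, a mannose-binding lectin gene, had 4.33, 6.98, 6.18 and 5.88 CPM in injury and 1.86, 3.49, 0.765 and 1.14 CPM in naive libraries (log2 fold change 1.68, SE 0.39, adjusted p = 0.0103). Colec10, a collectin gene, held 115 counts over the injury libraries, with at least 23 in each, and 4 over the naive ones, all in naive 4. Having passed the filter only through the group where it is high, it had to differ, so its test is not used as support. Its fitted log2 fold change was 4.67 and turned on naive 4, without which it was 7.84. Masp1 and Masp2, which encode the proteases of this pathway, held 39 counts and 1 count over all 8 libraries and were not tested.

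Genes of complement regulators and receptors moved in both directions. Cd59a, whose product blocks the membrane attack complex, had 354, 376, 336 and 328 CPM in injury and 232, 229, 204 and 237 CPM in naive libraries (log2 fold change 0.63, SE 0.08, adjusted p = 0.000151). Srpx2, whose product binds C1q in mouse brain, averaged 5.35 ± 1.09 CPM in injury and 1.54 ± 0.58 CPM in naive ganglia (SD, n = 4 each; log2 fold change 1.78, SE 0.32, adjusted p = 0.00199). Cr2, a receptor for C3 fragments, averaged 3.90 ± 0.539 and 1.63 ± 0.836 CPM in injury and naive ganglia (log2 fold change 1.26, SE 0.34, adjusted p = 0.0224). The call of Cr2 was lost without naive 1, naive 3, naive 4 or injury 2 (adjusted p up to 0.0671).

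Cd55 and Susd4, both genes of membrane regulators that act on the C3-cleaving enzymes, fell. Cd55 had 118, 25.8, 23.0 and 105 CPM in injury libraries 1 to 4 and 201, 133, 191 and 190 CPM in naive libraries 1 to 4. Injury 2 and injury 3 lay far below the other injury libraries, and naive 2 was the lowest naive one. Its log2 fold change was -1.40 (SE 0.44, adjusted p = 0.0468), and -0.80 (adjusted p = 7.76e-06) without naive 2, injury 2 and injury 3 together. The call of Cd55 was lost without any single naive library, without injury 2 or without injury 3 (adjusted p up to 0.103), and with DESeq2 (0.0784). Susd4 averaged 11.4 ± 2.63 CPM in injury and 19.1 ± 2.21 CPM in naive ganglia (SD, n = 4 each; log2 fold change -0.75, SE 0.18, adjusted p = 0.0112).

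Among the 6 most abundant of the other complement genes, all but Cd59a and Cd55 overlapped between the groups. Calr averaged 394 ± 48.6 CPM in injury and 375 ± 14.4 CPM in naive ganglia, C1qbp 356 ± 36.4 and 354 ± 28.7, Clu 366 ± 92.5 and 323 ± 39.3, and Cd93 36.1 ± 1.72 and 36.2 ± 4.39 (SD, n = 4 each). Calr and C1qbp encode proteins that bind C1q, and Clu encodes clusterin, which blocks the membrane attack complex. Their log2 fold changes lay between -0.01 and 0.18, with adjusted p-values of at least 0.460.

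C1q is a macrophage product, so the C1q levels were set beside macrophage markers of the same libraries. In RNA of dissociated ganglia, more cells of a type and more RNA per cell cannot be told apart. The 6 defining markers include some with few counts in naive libraries, down to 1 for Cd68 (naive 2), 8 for Csf1r (naive 1) and 11 for Adgre1 (naive 3). None of the 6 was at 0 in any library. Together the 6 markers summed to 16.7, 24.7, 27.9 and 18.8 CPM in injury and 5.82, 5.97, 11.3 and 12.5 CPM in naive libraries. Of these, Cx3cr1 (log2 fold change 2.30, SE 0.25), Csf1r (1.89, SE 0.53) and Aif1 (1.61, SE 0.35) rose, with adjusted p-values of 4.45e-05, 0.0265 and 0.00752. Adgre1 (1.03, adjusted p = 0.131), Cd68 (0.32, 0.783) and Tyrobp (-0.43, 0.548) did not pass the test. Over the whole list, 6 of 24 tested markers rose, which also include Fcrls (2.85), Ctss (1.26) and Mrc1 (1.10), and none fell. Of all tested genes, 10.1% were higher and 7.76% lower. Fcrls had 1, 10, 13 and 0 counts in naive libraries 1 to 4. It passed the filter on low counts only through the injury libraries, so its test is not used as support. Csf1r had 8, 14, 20 and 45 counts in naive libraries 1 to 4. It also needed the injury libraries to pass the filter, so the test of Csf1r is likewise not used as support. The list's median was 0.39 on the log2 scale. All 28 markers together summed to 128, 145, 184 and 167 CPM in injury libraries 1 to 4 and to 98.5, 101, 144 and 168 CPM in naive libraries 1 to 4, so these groups overlapped. Ptprc (-0.89), Lyz2 (-0.80) and Fcer1g (-0.57), named after their values were seen, had negative log2 fold changes and did not pass the test. Csf1r was lower in injury 1 than in naive 4, and 5 of the 8 fits that each left out a library did not call it (without injury 2, injury 3, naive 1, naive 2 and naive 3; adjusted p up to 0.0806). Without naive 2, injury 2 and injury 3 together, Csf1r had a log2 fold change of 0.80 (adjusted p = 0.466) and Fcrls one of 3.06 (0.0503). Mrc1 was not called when injury 2, injury 3, injury 4, naive 1, naive 2 or naive 3 was left out, with adjusted p-values reaching 0.0976.

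Per count of the defining markers, injury libraries 1 to 4 held 1.23, 0.737, 1.04 and 0.993 counts of C1q chains, against 0.631, 0.672, 0.671 and 0.568 in naive libraries 1 to 4. Each injury library lay above each naive one, injury 2 by little, and the log2 difference was 0.63 (exact permutation p = 0.0286, two-sided, 0.0857 after adjustment). With all 28 macrophage markers in place of the 6 as the denominator it was 1.69. Of the 6 defining markers, only Cx3cr1 had a log2 fold change (2.30) above the C1q sum's log2 difference of 2.00. Those of Csf1r (1.89), Aif1 (1.61), Adgre1 (1.03), Cd68 (0.32) and Tyrobp (-0.43) lay below it, so the ratio depends on which markers are summed. The part of macrophage number in the C1q levels was not tested beyond these ratios.

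**Figure D4:**
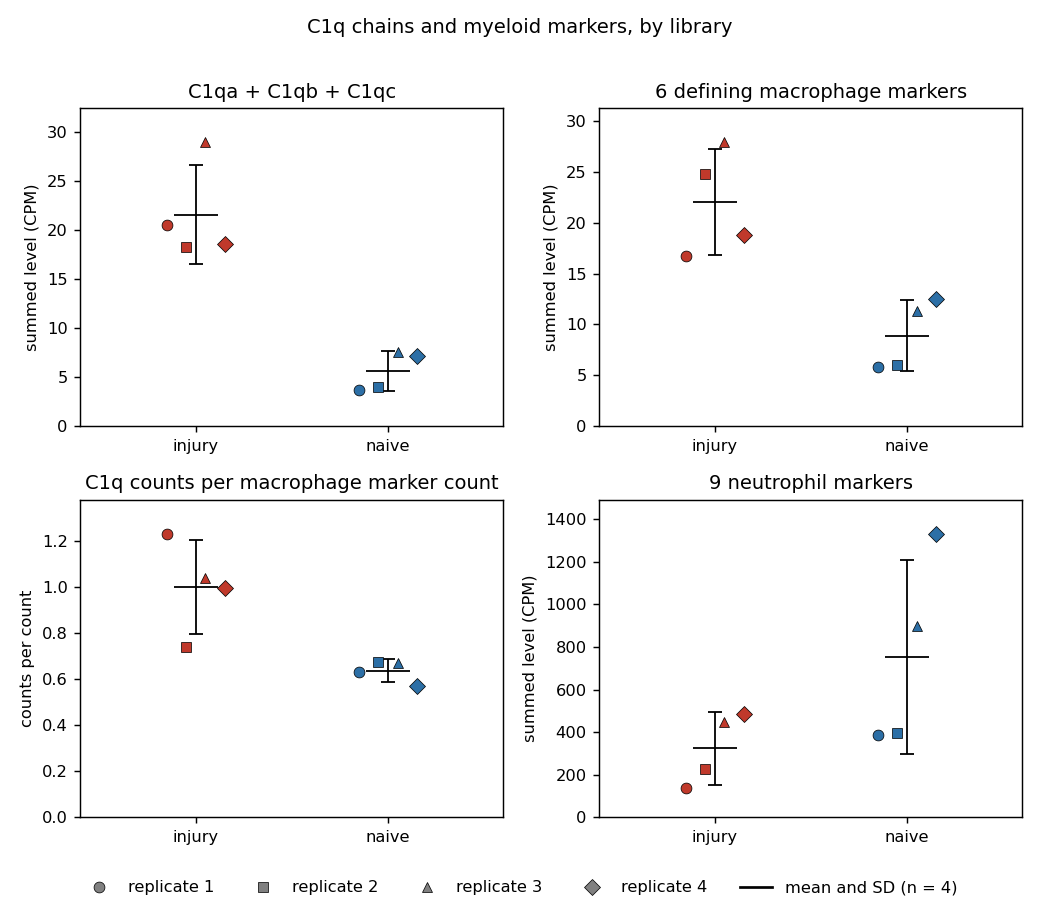
Summed CPM of the C1q chains, summed CPM of 6 defining macrophage markers, C1q counts per macrophage marker count, and summed CPM of 9 neutrophil markers, each for the 4 injury (left) and 4 naive (right) libraries, with the marker shape giving the replicate number and the bar the mean and SD. C1q and the 6 defining macrophage markers are higher in every injury library than in any naive one, while neutrophil markers reach 901 and 1332 CPM in naive 3 and naive 4.

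The 9 measured neutrophil genes summed to 136, 226, 447 and 486 CPM in injury libraries 1 to 4 and to 385, 397, 901 and 1332 CPM in naive libraries 1 to 4. Of them 2 were lower and none higher, or 8 lower with the replicate number as a block. S100a8 had a log2 fold change of -1.27 (adjusted p = 0.0644) and S100a9 one of -1.18 (0.0679). C3, Cfb, C5ar1 and all 3 C1q chains had higher levels in naive 3 and naive 4 than in naive 1 and naive 2, as these markers did. The defining macrophage markers did so too, with 5.82, 5.97, 11.3 and 12.5 CPM in naive libraries 1 to 4. Red cell markers summed to 11.8, 19.5, 37.2 and 42.0 CPM there. The full macrophage list and the lymphocyte, fibroblast and mural lists did as well, while satellite glia and endothelial sums had the opposite order. In the injury group these 6 complement genes were highest in injury 3, C1qb by little (3.91 CPM against 3.90 in injury 2). The defining macrophage sum (27.9 CPM) and the red cell sum (23.1 CPM) were highest there too. So were the full macrophage, lymphocyte, satellite glia, Schwann cell and sensory neuron sums, but not the fibroblast, endothelial and mural sums. Neutrophil markers were lower in injury 3 than in injury 4. The part of neutrophils or other cells in these levels was not tested.

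Markers of other cells showed the following. Sensory neuron markers summed to 19460 to 23070 CPM in injury and 16250 to 17080 CPM in naive libraries (2 of 11 higher, among them Tubb3 at 0.55, and 2 lower; Uchl1 had 0.37 and did not pass). Satellite glia markers summed to 1908 to 2251 and 1539 to 2210 CPM (1 of 11 higher; Apoe 0.05, Sparc 0.18) and Schwann cell markers to 1106 to 1289 and 1094 to 1206 CPM (0 of 8 called; Pmp22 0.21). Fibroblast and perineurial markers summed to 652 to 824 and 499 to 728 CPM (2 of 11 higher; Gsn 0.26, Dcn 0.09). Endothelial markers summed to 337 to 376 and 342 to 416 CPM (0 of 10 called; Esam -0.01, Ly6c1 -0.11) and mural markers to 47.5 to 63.4 and 61.5 to 77.5 CPM (0 of 7 called; Acta2 -0.13, Rgs5 -0.43). Red cell markers summed to 2.65 to 23.1 and 11.8 to 42.0 CPM (0 of 4 called; Alas2 -0.79, Slc4a1 -1.81; 3 globin genes at 0), with 3 lower under the block. The 9 lymphocyte genes found summed to at most 3.93 CPM and none passed the filter on low counts, Nkg7 and Ms4a1 included. In each pair of ranges injury comes first. Total counts were 16539644 to 28950551 per library, and the injury genes Atf3 (log2 fold change 2.45) and Sprr1a (9.14) were higher in every injury library than in any naive one.

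The genes whose profile over the 8 libraries was closest to that of the C1q sum included Mchr1, Pmaip1, Cryba2 and S100a11. The root mean square difference of their centred log2 CPM from that of the C1q sum was 0.243, 0.278, 0.284 and 0.321, against a median of 1.10 over 11092 genes compared. Closest to C4b were Ap1s1, Pcnx, Enho, Fam129b and Csrp1, with differences of 0.0854 to 0.112 and a median of 0.653 over the same genes. All of these were higher in every injury library than in any naive one. This largely follows from the choice, as the groups do not overlap for the C1q sum or for C4b. S100a11 averaged 185 ± 45.4 CPM in injury and 43.6 ± 4.02 CPM in naive ganglia (SD, n = 4 each).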

How the data were processed

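RNA of 4 injury and 4 naive mouse ganglia libraries was sequenced from its 3′ end. The submitters' processing notes name bcl2fastq 2.17, STAR, HTSeq and the build GRCm38 (mm10), with no further settings. The authors deposited read counts per gene and per genomic window, both whole numbers that were not normalized. Among the gene rows, 27 are named by dates (0.133% to 0.164% of the counts) and stayed in the library sizes and tests.

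Genes were fitted with edgeR 4.0.16 in R 4.3.3 (quasi-likelihood test with group alone in the model, TMM normalization, filterByExpr), with Benjamini-Hochberg adjustment over all 13770 genes tested. Sums, ratios and shares were tested on log2 values by exact permutation, two-sided, adjusted over 6 results. The design text says that each of 4 mice gave both kinds of ganglia. Same-numbered libraries were therefore taken as pairs, an assumption; their deviations from the group means correlated at 0.13, 0.22, 0.05 and 0.17. A fit with the mouse as a block was an alternative, as were DESeq2 1.42.0, limma-voom (limma 3.58.1), DESeq2 size factors, no filter on low counts, each library left out in turn, and naive 2, injury 2 and injury 3 left out together, which stood apart in an earlier analysis of these data. The edgeR fit was also run on simulated counts with known changes. The labels do not say more of how replicates were made, and sequenced reads without molecular identifiers may share molecules.

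The members, gene lists and marker lists were chosen with earlier results of these data known. Text names all members, the called and the 6 most abundant other complement genes, defining or called macrophage markers, up to 2 markers per other list, and the 5 genes nearest in profile to the C1q sum and to C4b among genes with a mean of at least 3 CPM and no count of 0; C1ra, C1s1, Masp1, Masp2, Cfd, Vsig4 and C4a were named after their values were seen. Some genes that this rule names are not reported here. Adgre1 is listed as Emr1 and Cd55b as Daf2. Windows were assigned to genes of GENCODE vM21 (GRCm38), extended by 1000 bases past the 3′ end. Promoters are from RefSeq (GRCm38.p6).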

Additional observations from a re-analysis of the deposited data

Results flagged for a closer look

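Within a group of 4 libraries, 7 results had 1 library far from the other 3, where the gap to the nearest divided by the group's range passed Dixon's 95% critical value. Of 126 groups examined, chance flags about 1 in 20. Colec10 had counts in naive 4 alone among the naive libraries (ratio 1.00). Cd55 was low in naive 2, at 133 CPM against 190 to 201 in the other naive libraries (0.833). Cr2 was high in naive 2, at 2.87 CPM against 1.04 to 1.33 (0.838). Adgre1 was high in injury 3, at 2.12 CPM against 0.928 to 1.04 (0.905). Pcnx was high in injury 3, at 166 CPM against 129 to 135 (0.83). The summed level of the 9 members was 145 CPM in injury 3, against 121 to 125 in the other injury libraries (0.837). The share of C1qa among the C1q chains was 53.3% in injury 4, against 44.3% to 45.8% in the other injury libraries (0.833).

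In the table of genomic windows, overlapping windows lie inside C2 (chromosome 17, starts 34892535 and 34892548, classes simple repeat and Alu). They held the same counts, 20 over the injury libraries and 3 over the naive ones, and at most 7 in any library. The share of all windows that differ as much was not determined. They are listed on the plus strand, and C2 lies on the minus strand. The plus-strand gene Zbtb12 (34879483 to 34896867) spans them as well.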

How the results depend on the processing

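The 4 members called higher were called under each of the other settings, except that C1qb was not called without naive 2, injury 2 and injury 3 together. Over the 9 members, 118 of 126 recomputed values kept direction and call, 6 lost the call (5 of Serping1, 1 of C1qb) and 2 changed sign. Leaving out single libraries gave 0 to 1 members lower, 1 to 3 other complement genes lower, and 689 to 1082 of all genes lower (689 without naive 3). DESeq2 gave 1 other complement gene lower. Without the 3 libraries together, 3 macrophage markers were higher. The summed level of 9 members had a log2 difference of 0.027 (exact permutation p = 0.771), of -0.031 to 0.076 without single libraries, of -0.0235 without the 3 libraries together and of -0.0501 with raw library sizes. For the share of C1qa in the C1q chain sum the log2 difference, -0.082, was 0.0024 without the 3 libraries and -0.17 to 0.056 without single ones. With the replicate block the log2 difference of the C1q sum was 2.00 (exact p over 4 pairs 0.125, the smallest possible), and the block changed no call of a member.

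Log2 fold changes of genes that did not pass the test changed sign without a single library for C2 (up to 0.011), C5ar1 (up to 0.16), Calr (-0.0018 to 0.13), C1qbp (-0.062 to 0.065), Clu (-0.0004 to 0.29), Cd93 (-0.073 to 0.071), Cd68 (-0.068 to 0.93), Apoe (-0.086 to 0.16), Dcn (-0.030 to 0.24) and Esam (-0.059 to 0.051). Without the 3 libraries they did for Calr (-0.058), C1qbp (-0.0498), Clu (-0.036), Cd68 (-0.42) and Apoe (-0.092). With DESeq2 size factors and with DESeq2 they did for Cd93 (0.0004 and 0.0003) and Esam (0.0014 and 0.0017). The lowest values for C2 and C5ar1 without single libraries were -0.39 and -0.71. The cause was not tested. C2, C3, Cfb and C5ar1, and C1qb in naive libraries, rest on few counts per library.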

Other observations

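The window table adds little on the 9 members, which all lie on a minus strand: C1qb, C1qc and C3 have no window, and those of Serping1 and C5ar1 held no counts. Near Cfb and inside C2, some windows listed on the opposite strand held more counts than the member itself. The other opposite-strand windows of C2 and the one of C4b held fewer. Past the 3′ end of Cfb, at the end of the plus-strand gene Nelfe, a window held 718 counts over the injury and 711 over the naive libraries, against 75 and 113 for Cfb. A further window there (start 34856340) is listed more than once, with 437 and 401 counts in 1 entry and 4 and 7 in another. Inside C2, past the end of the plus-strand gene Zbtb12, a window (start 34897347) held 280 and 327 counts, against 138 and 150 for C2. The larger of these counts are above those of the genes, so they were not all assigned to Cfb and C2.

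For regulators that changed, windows show where the counted ends lie. Cd59a was higher in every injury library at 3 separate windows, with at least 18.8 CPM in injury and at most 15.6 in naive libraries at the first (start 104114275), at least 112 and at most 89.9 at the next (104114941), and at least 109.7 and at most 90.8 at the last (104115305). At a group of overlapping windows between the last pair (starts 104115120 to 104115131) the groups overlapped, with at least 48.6 CPM in injury and at most 53.1 in naive libraries. In Susd4, a window that starts at 182895609 held 991 counts in injury and 1563 in naive libraries, close to the gene's own 998 and 1586. A more distal window (182896540) held 4880 and 6627, so the gene count leaves out most of the signal there; it had 49.0 to 65.1 CPM in injury and 73.8 to 90.5 CPM in naive libraries. All 7 windows with counts in Cr2 carry a repeat class, the largest of class ERVL-MaLR with 195 counts in injury and 82 in naive libraries.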
